A study of Mus musculus with 21 samples.

Results

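Control CD4+ and control CD8+ T cells of the mouse spleen were compared across all genes, in mice without the study's transgene. The libraries were chosen by label: 6 of purified CD4+ and 6 of purified CD8+ T cells, 12 of the 21 libraries of the series. The study itself compared T cells with and without L-gp130, an active form of gp130, through which interleukin-6 and related cytokines signal. All 12 libraries came from C57BL/6J mice at postnatal day 35 that were CD4Cre+/- and had no L-gp130 allele in their labels, so every value below belongs to cells of Cre-bearing mice. In CD4Cre mice Cre recombinase is driven by Cd4 regulatory sequence, which is active in thymocytes before the lineages part. By label 1 of the 6 CD4 and 4 of the 6 CD8 libraries were from males. CD4+ cells were captured on CD4 magnetic beads, whereas CD8+ cells were enriched by removing other cells, so the selection method and the cell type cannot be told apart in any difference given here.

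CD4 and CD8 T cells arise from a shared thymocyte that carries both coreceptors. Cells whose receptor sees peptide on MHC class II keep CD4 and become helper or regulatory cells, and cells whose receptor sees MHC class I keep CD8, a pair of chains encoded by Cd8a and Cd8b1, and can become killers. The zinc finger factor ThPOK, encoded by Zbtb7b, holds the CD4 fate and represses CD8 lineage genes, while Runx3 with its partner Cbfb silences Cd4 and Zbtb7b in the CD8 lineage.

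Promoters are shown for a CD8 chain, for the factor of each fate, and for Fos, an immediate early gene described further on. Each line is the 250 bases before a start site in the RefSeq promoter table for GRCm38.p6, read 5′ to 3′ on the gene's strand, and where a gene has several entries the most upstream is given. Capitals mark the RUNX core TGTGGT or ACCACA and the ETS core GGAAGT or ACTTCC in the first 3, and the cyclic AMP response half-site TGACG or CGTCA in Fos.
Cd8a, chr6:71373177-71373426, plus strand: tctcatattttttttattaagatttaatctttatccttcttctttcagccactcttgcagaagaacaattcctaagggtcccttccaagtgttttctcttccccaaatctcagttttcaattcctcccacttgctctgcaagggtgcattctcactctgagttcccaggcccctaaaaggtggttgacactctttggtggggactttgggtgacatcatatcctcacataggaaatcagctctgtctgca
Zbtb7b, chr3:89393379-89393628, minus strand: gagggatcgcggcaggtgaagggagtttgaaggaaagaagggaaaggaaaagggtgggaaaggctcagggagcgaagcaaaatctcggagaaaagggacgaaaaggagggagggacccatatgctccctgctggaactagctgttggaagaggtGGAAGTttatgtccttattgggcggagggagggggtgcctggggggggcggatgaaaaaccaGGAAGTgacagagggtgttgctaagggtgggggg
Runx3, chr4:135120395-135120644, plus strand: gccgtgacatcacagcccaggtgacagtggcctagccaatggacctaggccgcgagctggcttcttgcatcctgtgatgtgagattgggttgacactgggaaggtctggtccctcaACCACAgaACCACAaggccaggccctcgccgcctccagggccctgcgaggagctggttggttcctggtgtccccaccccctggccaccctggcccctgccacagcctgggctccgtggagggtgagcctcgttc
Fos, chr12:85473640-85473889, plus strand: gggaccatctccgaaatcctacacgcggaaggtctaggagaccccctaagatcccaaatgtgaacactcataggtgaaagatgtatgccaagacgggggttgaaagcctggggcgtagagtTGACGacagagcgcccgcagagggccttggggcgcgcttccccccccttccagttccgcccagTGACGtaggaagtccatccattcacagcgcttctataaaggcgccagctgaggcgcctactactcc

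The Runx3 window held 2 copies of the RUNX core, beginning 134 and 126 bases before the start, and these letters were not in the Cd8a or Zbtb7b windows. The Zbtb7b window held 2 copies of the ETS core, at 96 and 34 bases, and the Fos window 2 of the half-site, at 129 and 66 bases. Of 32851 windows of the same length in the table, 14% held the RUNX core, 19.7% the ETS core and 17.8% the half-site, on either strand. These matches describe letters only, and no binding was measured.

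The coreceptor genes placed every library with its label. Levels are in CPM, the counts-per-million unit, after TMM normalisation, which sets the reads of a gene against the size of the library. Cd4 (ENSMUSG00000023274, chr6:124864692-124888221, minus strand) had 661 to 779.9 CPM (median 750.1) in CD4 and 3.54 to 13.2 CPM (median 8.09) in CD8 libraries. Cd8a (ENSMUSG00000053977, chr6:71373427-71379173) had 7.68 to 13.9 CPM (median 10.9) in CD4 and 966 to 1235 CPM (median 1114) in CD8 libraries. Cd8b1 (ENSMUSG00000053044, chr6:71322788-71337494) had 19.9 to 24.2 CPM (median 21) in CD4 and 859 to 1149 CPM (median 1049) in CD8 libraries. No library lay between the groups for these genes, and since CD4 was the target of the beads these values check the labels and are no finding. The mean level of Cd8a in CD4 libraries was 0.996% of that in CD8 libraries, that of Cd8b1 2.10%, and that of Cd4 in CD8 libraries 1.11% of that in CD4 libraries. Cd4 was at 11.5 to 13.2 CPM in CD8 replicates 1 to 3 and at 3.54 to 4.72 CPM in CD8 replicates 4 to 6.

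**Figure D1:**
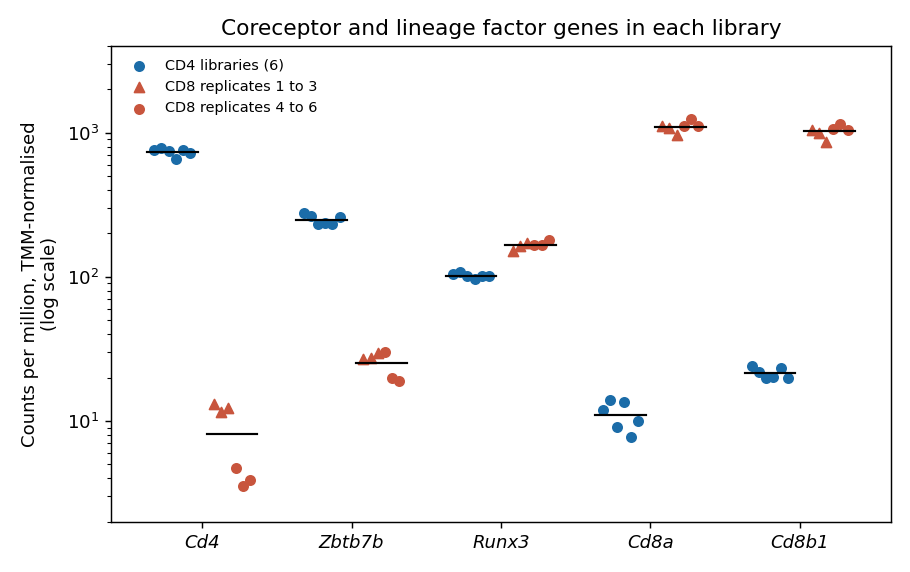
Level of 5 coreceptor and lineage factor genes in each library, in TMM-normalised CPM on a log scale. Blue dots are the 6 CD4 libraries, red triangles CD8 replicates 1 to 3, red dots CD8 replicates 4 to 6, and black bars group means. Cd4 and Zbtb7b sit higher in every CD4 library, and Runx3, Cd8a and Cd8b1 in every CD8 library.

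Zbtb7b (ENSMUSG00000028042, chr3:89377644-89394776, minus strand) had 232 to 275 CPM (median 247) in CD4 and 18.9 to 29.9 CPM (median 27.2) in CD8 libraries. The groups did not overlap, and the log2 difference of CD4 over CD8, the form of all differences below, was 3.36 (SE 0.127, adjusted p 1.03e-09, edgeR's quasi-likelihood test). The Zbtb7b promoter printed above lies directly before only some of the starts pooled here as the distal region. Transcripts from this distal region summed to 49.2 to 70.1 TPM (Salmon's level per transcript length) in CD4 and 5.2 to 10.1 TPM in CD8 libraries. Those from the proximal region summed to 59.7 to 71.7 TPM and 1.83 to 3.17 TPM. The proximal transcripts of Zbtb7b made up 50.4% to 56.3% of the gene's TPM in CD4 and 16.4% to 34.8% in CD8 libraries, ranges that did not overlap. This split was chosen after its values were seen and was not tested, and reads of shared exons are divided between transcripts by estimate. In CD8 libraries a mean of 24.5% of the gene's TPM lay in the distal transcript Zbtb7b-209, with a mean of 11.2 reads.

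Runx3 had 96.5 to 108 CPM (median 102) in CD4 and 150.0 to 179.6 CPM (median 166) in CD8 libraries, again with no overlap (log2 -0.73, SE 0.0497, adjusted p 5.06e-08). Its distal transcripts, from the promoter with 2 RUNX cores, held 67.3% to 73.5% of the gene's TPM in CD4 libraries. In CD8 libraries they held 70.3% to 86.9%, so these shares overlapped. The proximal protein-coding transcript held 21.3% to 26.7% in CD4 and 8.31% to 12.4% in CD8 libraries, ranges that did not overlap. It had 8.18 to 11.3 TPM in CD4 and 3.18 to 6.54 TPM in CD8 libraries, with mean reads of 541 and 229. Each proximal transcript without a coding label had a mean of at most 3.85 reads in either group, so its share is uncertain. This split was chosen after its values were seen and was not tested. Runx1, the paralog that represses Cd4 at earlier thymic stages, was higher in CD4, with 96.4 to 122 CPM (median 106) in CD4 and 56.9 to 63.4 CPM (median 59.1) in CD8 libraries (log2 0.88, SE 0.0634, adjusted p 9.1e-08).

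The whole list of coreceptors and lineage factors split evenly. Of 14660 genes tested, 7662 (52.3%) were called at an adjusted p under 0.05, 3971 (27.1%) higher in CD4 and 3691 (25.2%) higher in CD8 libraries, so a call by itself was common. The groups did not overlap for 5498 genes (37.5%), 20.2% of all genes being higher in CD4 and 17.3% higher in CD8. On the list 7 of 20 tested genes were called higher in CD4 and 7 higher in CD8, with a median log2 difference of 0.03, against 0.01 over all genes tested. Gata3, which acts upstream of Zbtb7b, stood at 64.3 ± 4.72 and 43.1 ± 3.38 CPM in CD4 and CD8 libraries (mean ± SD, n = 6 each, in this order here and below; log2 0.50, SE 0.0619, adjusted p 1.38e-05). Tox (log2 0.52, SE 0.0816), Bcl11b (log2 0.53, SE 0.0977) and Ets1 (log2 0.36, SE 0.0685) were higher in CD4 as well. Eomes, a T-box factor of killer and memory cells, had 10.7 to 16.8 CPM (median 15.9) in CD4 and 118 to 124 CPM (median 120.3) in CD8 libraries (log2 -2.99, SE 0.0998, adjusted p 9.64e-11). Tbx21, encoding T-bet, was at 24.1 ± 5.44 and 63.6 ± 6.27 CPM (log2 -1.51, SE 0.163), and Myb (log2 -1.15, SE 0.134) and Zbtb7a (log2 -0.67, SE 0.0540) were higher in CD8 too. Of the members without a call, Tcf7 stood at 1415 and 1421 CPM, Cbfb at 187 and 190.2 CPM and Satb1 at 655 and 626 CPM.

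Some facts of the libraries touch all results. The CD4 libraries held 27894037 to 35913566 reads and the CD8 libraries 17737131 to 19311661, so depth went with cell type without overlap. The first principal component (74.3% of the variance) separated the cell types, and the second (5.47%) separated CD8 replicates 1 to 3 (-26.2 to -22.0) from 4 to 6 (12 to 41.4). Against replicates 1 to 3 alone 4317 genes were called higher in CD4 and 3824 higher in CD8, and against replicates 4 to 6 alone 4000 and 3310. CD4 replicate 1 was the only CD4 library labelled male, so in fits without it the sex term rested on the CD8 libraries alone. Changes in those fits mix the loss of a library with a change in that term. CD4 replicate 5 was labelled female but had 115.6 CPM (before TMM) of the Y-linked Ddx3y and 0.137 CPM of Xist. The other CD4 libraries labelled female had 857.7 to 997.7 CPM of Xist, so its reads were those of a male. Its label was kept in the main fit, and without this library 3773 and 3515 genes were called. Among genes above a mean log2 CPM of 4, in 5 equal sets, the median log2 difference was 0.03 in the set of lowest GC content and -0.18 in that of the highest, and -0.19 in the set of shortest and 0.10 in that of longest transcripts. Replicates are mouse numbers in the labels, which do not say whether a number is shared between the cell types. By label and by reads, CD4 and CD8 replicates 2 were of opposite sex, and so were replicates 4. A fit with the replicate number as a block therefore joins different mice for these numbers.

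Most differences were small. Of the called genes 67.6% differed by less than 2-fold, while 1916 (13.1% of those tested) were called and at least 2-fold higher in CD4 and 565 (3.85%) at least 2-fold higher in CD8. Rare transcripts made up most of these: 1226 of the 1916 and 304 of the 565 had a mean under 8 CPM in the higher group. Of genes with a mean of at least 30 CPM, 264 were at least 2-fold higher in CD4 and 138 in CD8. In libraries thinned to an equal number of reads, 1761 and 511 genes passed both conditions. In bulk libraries fewer cells of a type and less RNA per cell cannot be told apart, here and in all that follows.

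**Figure D2:**
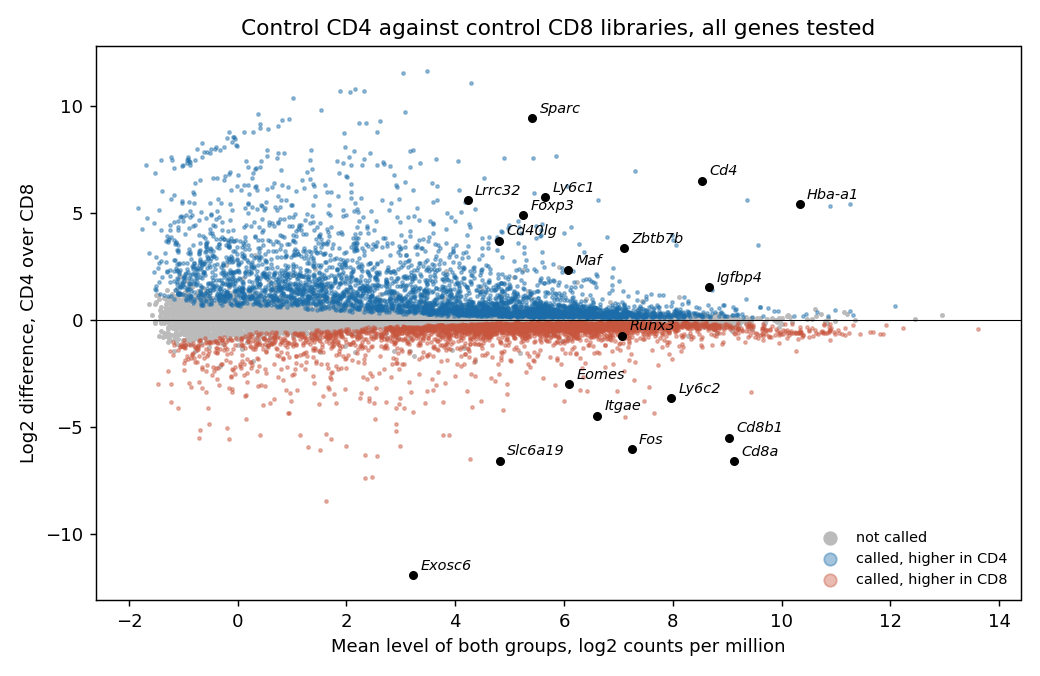
Log2 difference of CD4 over CD8 (y) against the mean level of both groups in log2 CPM (x), with 1 point for each of the 14660 genes tested. Blue points are called higher in CD4 (3971 genes), red points higher in CD8 (3691) and grey points are not called. Black points with names are single genes given for orientation, among them Sparc of stroma and Hba-a1 of red cells.

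The 15 largest steady differences with no overlap between groups and at least 8 CPM in the higher group, leaving out genes listed for other cell types, held several genes of vessels and connective tissue in the CD4 direction. Pcdh12, a protocadherin of endothelium, and Sox18, a vessel transcription factor, had 6.80 to 11.8 and 5.65 to 10.8 CPM in CD4 libraries and no read in any CD8 library. Against a floor of 3 reads over the CD8 group they were at least 316-fold and 297-fold higher. Flt4 (the lymphatic growth factor receptor VEGFR3), Hspg2 (the basement membrane proteoglycan perlecan), Serpinh1 (a collagen chaperone), Nr5a1, Lrrn1, Efhd1, Crispld1, Tspan7, Stra6l and Pla2g2d had means of 8.26 to 25 CPM in CD4 and at most 0.349 CPM in CD8 libraries. The 8 defining markers of stroma and endothelium summed to 95.6 to 188 CPM in CD4 and 4.24 to 9.86 CPM in CD8 libraries, 6 of 7 tested were called higher in CD4, and none was at 0 throughout a group. The part of such cells in these genes was not tested.

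With a floor of 30 CPM, added after the values were seen, and the same rule otherwise, which leaves out genes of other cell types and gene models, Cd4 led the CD4 direction. After it came Ly6c1, a lipid-anchored surface protein, with 85.3 to 128 CPM (median 95.5) in CD4 and 1.38 to 3.55 CPM (median 1.86) in CD8 libraries (log2 5.73, SE 0.162, adjusted p 6.74e-11). Its neighbour Ly6c2 was reversed, with 27.2 to 45.3 CPM (median 37.2) in CD4 and 388 to 567 CPM (median 459) in CD8 libraries (log2 -3.65, SE 0.144, adjusted p 1.93e-09). The 2 copies are close in sequence, so the split of reads between them is uncertain. The part of stroma and endothelium in Ly6c1, and in Ly6a given below, was not tested. Then followed Lrrc32, Adam23, Foxp3, Dnase1l3, Il4i1, the sialyltransferase gene St8sia6, Clu, Cd40lg, the cyclin D1 gene Ccnd1, Pdlim4, the chemokine receptor gene Ccr4, Il2ra and Zbtb7b. St8sia6 had 121 to 147 CPM (median 131) in CD4 and 6.14 to 7.91 CPM (median 6.52) in CD8 libraries (log2 4.36, SE 0.0794, adjusted p 1.89e-13). Ccnd1, whose product drives cell cycle entry, had 65.8 ± 10.2 and 5.18 ± 1.39 CPM (log2 3.61, SE 0.202), and 23.4% of its exonic bases lie in exons of LTO1 on the other strand. Dnase1l3 (68.5 and 2.86 CPM) is also made by dendritic cells and macrophages. Of the exonic bases of Il4i1 (30.3 and 1.46 CPM) 83.9% lie in exons of Tbc1d17 on the other strand, which these unstranded reads cannot separate.

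In the CD8 direction Exosc6, a subunit of the RNA exosome, was listed at 0 in each CD4 library and had 16.7 to 20.4 CPM in CD8 libraries. All (100.0%) of its exonic bases lie within exons of Aars on the same strand, and Aars had 103 ± 2.54 and 73.8 ± 4.19 CPM, so the division of reads between this pair is uncertain. After Cd8a came Slc6a19, a transporter of neutral amino acids known from gut and kidney, with 0.409 to 0.748 CPM (median 0.540) in CD4 and 46.0 to 68.2 CPM (median 56.3) in CD8 libraries (log2 -6.56, SE 0.167, adjusted p 7.58e-12). Its TPM lay mostly in 1 processed transcript without a coding label, at 0.235 ± 0.104 TPM in CD4 and 20.5 ± 3.86 TPM in CD8, while its protein-coding transcript had 0.46 ± 0.23 TPM in CD8 libraries. The integrin chain gene Itgae, encoding CD103, had 6.58 to 9.49 CPM (median 8.35) in CD4 and 159.5 to 213 CPM (median 182) in CD8 libraries (log2 -4.46, SE 0.127, adjusted p 7.47e-11). CD103 pairs with the product of Itgb7 to bind E-cadherin. Scin, Lcn4, Fam71b, the potassium channel gene Kcnc1, the granzyme gene Gzmm, Angpt1, Bend4, the adhesion receptor gene Adgrg5 and Samd3 had CD8 means of 10.6 to 154 CPM and CD4 means of 0.411 to 17.5 CPM. At the floor of 30 CPM Klrd1, Ccl5, Baiap3, Sytl3, Crtam and Ctsw joined them.

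T helper cells license B cells and dendritic cells through CD40 ligand and instruct other cells with cytokines. On the list of helper costimulation and cytokines 10 of 16 tested genes were called higher in CD4 and 3 higher in CD8. Of all genes tested 27.1% and 25.2% were, shares that stand beside each list count below as well. The median log2 difference of the list was 0.87. Cd40lg had 47.4 to 56.7 CPM (median 52.0) in CD4 and 2.36 to 5.45 CPM (median 3.88) in CD8 libraries (log2 3.69, SE 0.187, adjusted p 1.42e-08). The costimulatory receptor gene Tnfrsf4, encoding OX40, stood at 27.0 ± 4.04 and 4.11 ± 1.14 CPM (log2 2.72, SE 0.196) and Tnfsf11, encoding RANKL, at 14.7 ± 2.61 and 2.12 ± 0.220 CPM (log2 2.71, SE 0.153). Cd200 (log2 2.37, SE 0.108) and Icos (log2 0.88, SE 0.0915) were also higher in CD4. The part of other cell types in the Cd200 difference was not tested. Il2 itself was rare, at 0.784 ± 0.162 and 0.148 ± 0.134 CPM (log2 1.93, SE 0.353). The lymphotoxin gene Ltb was called higher in CD8 (521 and 707 CPM, log2 -0.39, SE 0.0582), which was lost when GC content and length were corrected for (-0.14, adjusted p 0.136) or transcript length was an offset (-0.07, adjusted p 0.33).

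Regulatory T cells are CD4 cells that hold immune responses in check under the factor FOXP3. On their list 16 of 19 tested genes were called higher in CD4 and 3 higher in CD8, with a median log2 difference of 1.57. Against CD8 replicates 1 to 3 and 4 to 6 alone the list medians were 1.31 and 1.79. Foxp3 had 57.0 to 87.2 CPM (median 72.7) in CD4 and 1.73 to 4.4 CPM (median 2.46) in CD8 libraries, without overlap (log2 4.88, SE 0.209, adjusted p 5.42e-09). Of its exonic bases 12.9% are shared with Ccdc22 on the other strand, which was at 32.8 and 29.4 CPM. Lrrc32, encoding GARP, the anchor of latent TGF-beta on regulatory cells, had 32.4 to 40.8 CPM (median 37.4) in CD4 and 0.177 to 1.2 CPM (median 0.868) in CD8 libraries (log2 5.58, SE 0.293, adjusted p 2.53e-08). Il2ra, the alpha chain of the interleukin-2 receptor, stood at 70.6 ± 8.17 and 6.27 ± 1.62 CPM (log2 3.42, SE 0.174). The defining markers of stroma and endothelium had a median log2 difference of 5.60. The part of such cells in Lrrc32 and in Nrp1, given below, was not tested.

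Other members of the regulatory list spread over a wide range of differences. The folate receptor gene Izumo1r was at 117 ± 13.7 and 25.7 ± 2.17 CPM (log2 2.27, SE 0.0881), the zinc finger gene Ikzf4 at 22.0 ± 2.05 and 4.13 ± 0.871 CPM (log2 2.40, SE 0.147) and Nrp1 at 34.2 ± 3.54 and 6.39 ± 0.953 CPM (log2 2.30, SE 0.104). Ikzf2, encoding Helios, had 81.0 ± 13.5 and 44.9 ± 7.16 CPM (log2 0.68, SE 0.123) and Tnfrsf18, encoding GITR, 52.5 ± 4.08 and 38.6 ± 3.05 CPM (log2 0.49, SE 0.0723). The checkpoint gene Ctla4 had a mean of 33.1 CPM in CD4, 16.3 CPM in CD8 replicates 1 to 3 and 5.53 CPM in CD8 replicates 4 to 6, with a log2 difference of 1.57 against all 6, 0.97 against the first set and 2.58 against the other. Its call was lost with the replicate number as a block (1.49, adjusted p 0.0587). The members called higher in CD8 were Itgae, Klrg1 (5.24 ± 0.678 and 9.12 ± 0.815 CPM) and Nt5e, encoding CD73 (53.0 ± 6.60 and 66.3 ± 6.77 CPM), which CD8 cells are known to use as well.

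Follicular helper cells enter B cell follicles through CXCR5 and drive germinal centres under BCL6. On their list 9 of 10 tested genes were called higher in CD4 and 1 higher in CD8, with a median log2 difference of 1.34. The transcription factor gene Maf had 106 to 121 CPM (median 115) in CD4 and 15 to 30.5 CPM (median 21.2) in CD8 libraries (log2 2.31, SE 0.154, adjusted p 1.98e-07). Pdcd1, encoding PD-1, had 17.1 to 24.2 CPM (median 21) in CD4 and 2.73 to 5.24 CPM (median 4.02) in CD8 libraries (log2 2.38, SE 0.175, adjusted p 1.06e-07), and Tox2 13.2 ± 2.74 and 1.03 ± 0.524 CPM (log2 3.57, SE 0.332). Cxcr5 had 56.1 ± 8.08 and 20.8 ± 2.96 CPM (log2 1.46, SE 0.124), but it is a B cell gene too, and the B cell gene Cd79a was at 39.7 to 201 CPM in CD4 and 3.35 to 17.4 CPM in CD8 libraries. The part of B cells in the Cxcr5 difference was not tested. Il21, their main cytokine, was rare (1.76 and 0.0477 CPM). Its log2 difference of 4.66 became 8.61 without CD4 replicate 1, the only CD4 library labelled male. Sh2d1a, the adaptor SAP, was called higher in CD8 (41.0 and 48.8 CPM, log2 -0.23), a call lost with the GC and length correction (adjusted p 0.0506).

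TH1, TH2 and TH17 cells are helper subsets defined by their cytokines, and their genes did not move together. On the list 8 of 21 tested genes were called higher in CD4 and 9 higher in CD8, with a median log2 difference of 0.01. The TH2-associated receptor gene Ccr4 stood at 30.1 ± 2.65 and 2.39 ± 0.667 CPM (log2 3.51, SE 0.152) and the TH17-associated Ccr6 at 8.14 ± 1.09 and 2.26 ± 0.889 CPM (log2 1.73, SE 0.238). The aryl hydrocarbon receptor gene Ahr (14.9 and 6.07 CPM, log2 1.15, SE 0.0960) and the membrane protein genes Tmem176a (log2 1.85, SE 0.172) and Tmem176b (log2 1.95, SE 0.170) were higher in CD4 as well, and all 3 are known from macrophages and dendritic cells too. Beside Tbx21, the TH1 genes Il18rap (26.6 ± 8.02 and 79.8 ± 6.57 CPM, log2 -1.74) and Hopx (23.3 ± 2.64 and 68.9 ± 5.78 CPM, log2 -1.60) were higher in CD8. The interferon gamma gene Ifng had 1.10 to 3.24 CPM (median 2.57) in CD4 and 6.19 to 24.6 CPM (median 15.2) in CD8 libraries (log2 -2.88, SE 0.504, adjusted p 0.000616). Its mean was 23.3 CPM in CD8 replicates 1 to 3 and 7.23 CPM in CD8 replicates 4 to 6.

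**Figure D3:**
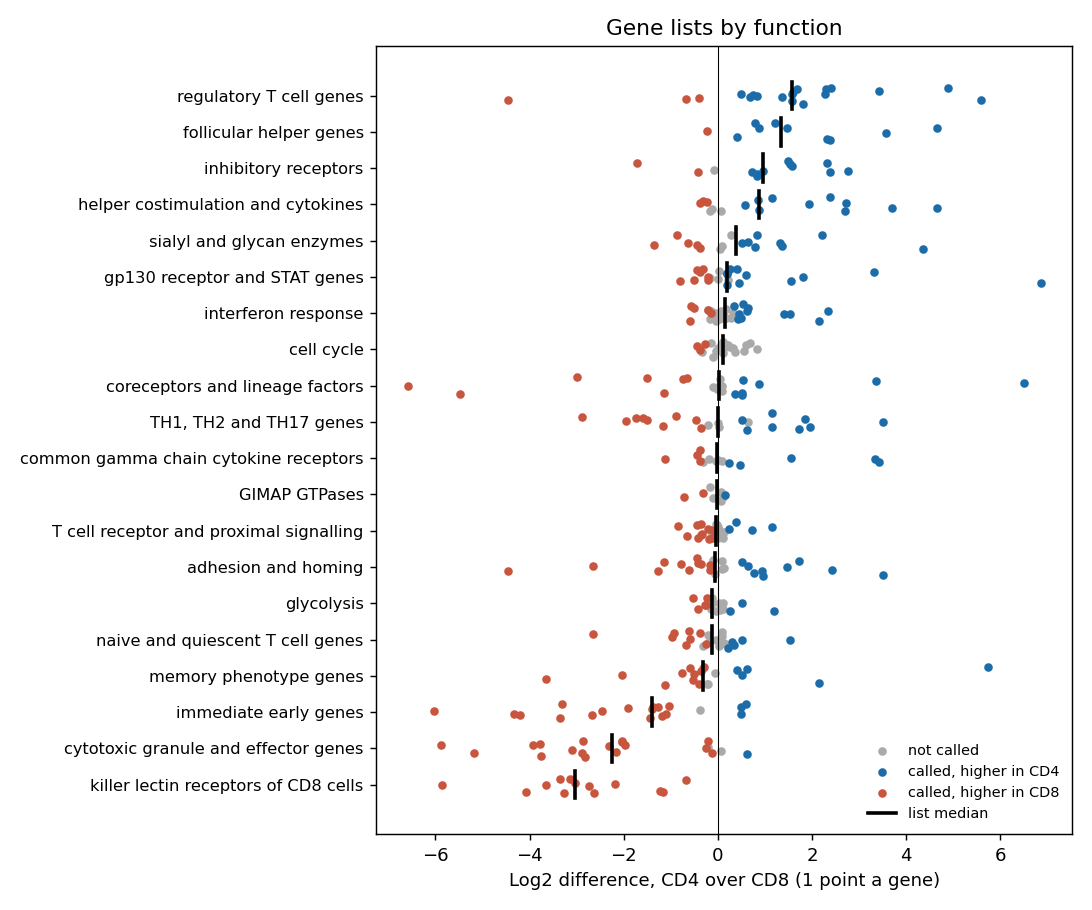
Log2 difference of CD4 over CD8 (x) for each tested gene (points) of the 20 function lists (y), ordered by list median (black bars). Blue and red points are called higher in CD4 and in CD8, and grey points are not called. The regulatory, follicular helper, inhibitory and helper lists have medians of 1.57 to 0.87, and the cytotoxic and killer lectin lists of -2.24 and -3.04.

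Killer T cells store perforin and granzymes in granules and release them onto target cells. On the list of cytotoxic genes 1 of 20 tested genes were called higher in CD4 and 17 higher in CD8, with a median log2 difference of -2.24. Against CD8 replicates 1 to 3 and 4 to 6 alone the list medians were -2.47 and -2.09. Nkg7, a granule membrane protein, had 21.1 to 28.4 CPM (median 24.9) in CD4 and 308 to 349.8 CPM (median 335) in CD8 libraries (log2 -3.77, SE 0.0730, adjusted p 2.81e-13). The chemokine gene Ccl5 stood at 39.6 ± 8.47 and 339 ± 44.7 CPM (log2 -3.11, SE 0.161) and the cathepsin gene Ctsw at 40.2 ± 2.96 and 274 ± 14.5 CPM (log2 -2.82, SE 0.0565). Gzma had 2.74 to 12.7 CPM (median 6.54) in CD4 and 86.7 to 149 CPM (median 122) in CD8 libraries (log2 -3.77, SE 0.345, adjusted p 8.17e-06). The perforin gene Prf1 had 23.5 ± 3.95 and 99.7 ± 7.64 CPM (log2 -2.04, SE 0.108), Gzmb 5.66 ± 0.730 and 29.0 ± 5.2 CPM (log2 -2.17, SE 0.114), and Crtam, an adhesion receptor of activated killers, 6.28 ± 0.552 and 47.0 ± 2.75 CPM (log2 -2.87, SE 0.0750). The chemokine gene Ccl3 had a mean of 0.245 CPM in CD4, 23.7 CPM in CD8 replicates 1 to 3 and 7.51 CPM in CD8 replicates 4 to 6, and its log2 difference was -5.87, or -4.89 without CD8 replicate 3. The Fas ligand gene Fasl was called higher in CD4 (10.8 ± 0.962 and 7.36 ± 1.93 CPM, log2 0.63, adjusted p 0.0193) and lost its call without CD8 replicate 6 (0.30, adjusted p 0.0653), against CD8 replicates 1 to 3 alone (adjusted p 0.0815) and with the replicate number as a block (adjusted p 0.0683).

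Killer lectin receptors let NK and CD8 cells read MHC class I and related molecules. On their list 0 of 13 tested genes were called higher in CD4 and 13 higher in CD8, with a median log2 difference of -3.04. Klrd1, encoding the CD94 chain, had 13.4 to 16.4 CPM (median 15) in CD4 and 133 to 149 CPM (median 143) in CD8 libraries (log2 -3.27, SE 0.0671, adjusted p 3.54e-13). Its partner gene Klrc1, encoding NKG2A, was at 5.73 ± 1.79 and 35.5 ± 3.77 CPM and Klrk1, encoding NKG2D, at 14.9 ± 3.23 and 67.8 ± 3.78 CPM. The Ly49 genes Klra6 (0.138 and 7.80 CPM), Klra7 (0.829 and 15.7 CPM) and Klra9 (0.593 and 8.96 CPM) had lower counts, and the division of reads between these close copies is uncertain. NK cells express many of the same genes, and 7 of the 13 are also on the NK cell list. The 6 defining NK markers summed to 22.1 to 33.7 CPM in CD4 and 68.9 to 120.0 CPM in CD8 libraries, and Ncr1, a receptor that marks NK cells, had 1.83 ± 0.903 and 20.4 ± 3.78 CPM. The part of NK cells in the cytotoxic and lectin differences was not tested. It was also not tested for Eomes, Tbx21, Il18rap and Ifng above, or for Il2rb and Cd160 below.

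Memory T cells persist after a response and carry a set of surface and cytoskeletal genes. On the list of memory genes 5 of 19 tested genes were called higher in CD4 and 10 higher in CD8, with a median log2 difference of -0.33. Il2rb, the chain for interleukin-2 and interleukin-15 that marks memory CD8 cells, had 257 to 363 CPM (median 327) in CD4 and 557 to 708 CPM (median 659) in CD8 libraries (log2 -1.13, SE 0.0812, adjusted p 8.55e-08). Cd7 stood at 46.7 ± 3.53 and 193 ± 8.50 CPM (log2 -2.04, SE 0.0608), and S100a10 (log2 -0.59, SE 0.0448), Anxa2 (log2 -0.75, SE 0.112) and Bcl2 (log2 -0.52, SE 0.0913) were higher in CD8. Higher in CD4 were Ly6a, encoding Sca-1 (154 ± 6.85 and 37.4 ± 4.24 CPM, log2 2.15, SE 0.0585), the integrin gene Itgb1 (log2 0.52, SE 0.0531), S100a4 (log2 0.61, SE 0.109) and the hyaluronate receptor gene Cd44 (121 ± 4.71 and 89.0 ± 10.2 CPM, log2 0.41, SE 0.0729). Exons of a gene model hold 51.7% of the exonic bases of S100a4, so its level is uncertain. Il7r, the receptor for the survival cytokine interleukin-7, was not called (479 ± 94.4 and 587 ± 122 CPM, log2 -0.33, adjusted p 0.126), but was without CD4 replicate 1 (-0.60, adjusted p 0.0193) and with transcript length as an offset (-0.62, adjusted p 0.01).

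Genes of naive and resting T cells were abundant in both groups. On their list 5 of 22 tested genes were called higher in CD4 and 8 higher in CD8, beside 27.1% and 25.2% of all genes. The median log2 difference was -0.12. Igfbp4, an IGF-binding protein, had 504 to 719.9 CPM (median 559) in CD4 and 172 to 252 CPM (median 228) in CD8 libraries (log2 1.53, SE 0.0995, adjusted p 4.81e-08). Klf2, a factor of T cell quiescence and trafficking, had 498 to 614 CPM (median 543) in CD4 and 910.5 to 1242 CPM (median 1071) in CD8 libraries (log2 -0.93, SE 0.0847, adjusted p 8.18e-07), and was higher in every CD8 library. The gut-homing receptor gene Ccr9 was at 24.6 ± 5.03 and 138 ± 23.3 CPM (log2 -2.66, SE 0.156) and Dapl1 at 41.8 ± 5.11 and 90.9 ± 9.35 CPM (log2 -0.98, SE 0.0692), while Bach2, which keeps T cells quiescent, was higher in CD4 (log2 0.52, SE 0.0798). Lef1 (444 and 455 CPM) and S1pr1 (475 and 465 CPM) were not called, nor was Ccr7 (449 and 419.6 CPM, log2 0.12, adjusted p 0.145), though it was without CD8 replicate 6 (0.21, adjusted p 0.0153). Against CD8 replicates 1 to 3 alone both Ccr7 (0.25, adjusted p 0.00284) and Lef1 (0.23, adjusted p 0.0203) were called higher in CD4.

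Adhesion and homing receptors direct T cells to tissues. On their list 9 of 25 tested genes were called higher in CD4 and 11 higher in CD8, with a median log2 difference of -0.05. The integrin chain gene Itgb3 had 187 to 214 CPM (median 203) in CD4 and 31.5 to 45.9 CPM (median 35.6) in CD8 libraries (log2 2.43, SE 0.0932, adjusted p 3.12e-10). Itgb3 is also a platelet gene. The 6 defining platelet markers summed to 11.4 to 27.5 CPM in CD4 and 12.2 to 29.7 CPM in CD8 libraries. The part of platelets in the Itgb3 difference was not tested. Itga6 (212 ± 7.51 and 113 ± 18.2 CPM, log2 0.95), Cd9 (54.3 ± 4.75 and 29.4 ± 1.85 CPM, log2 0.95) and the oxysterol receptor gene Gpr183 (92.5 ± 12.1 and 57.7 ± 8.39 CPM, log2 0.76) were higher in CD4. The part of other cell types in the differences of Itga6, Cd9 and Gpr183 was not tested. Beside Itgae and Ccr9, the activating receptor gene Cd226 (68.9 ± 6.81 and 147 ± 11.4 CPM, log2 -1.15) and the adhesion ligand gene Selplg (482 ± 29.9 and 854 ± 44.0 CPM, log2 -0.79) were higher in CD8.

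Components of the T cell receptor and its first signalling steps differed little. On their list 4 of 27 tested genes were called higher in CD4 and 11 higher in CD8, with a median log2 difference of -0.04, and Cd28 was the 1 member called at 2-fold or more. Cd28, the main costimulatory receptor, had 268 to 343 CPM (median 294) in CD4 and 109 to 157 CPM (median 129.5) in CD8 libraries (log2 1.14, SE 0.0881, adjusted p 1.66e-07). Cd5, whose level follows the strength of self-recognition in the thymus, had 318 to 377 CPM (median 359) in CD4 and 206 to 241 CPM (median 217) in CD8 libraries (log2 0.72, SE 0.0596, adjusted p 3.15e-07), and Rasgrp1 was higher in CD4 too (log2 0.39, SE 0.0766). The phosphatase gene Ptpn22 (157 ± 12.7 and 275 ± 23.1 CPM, log2 -0.85), Themis (log2 -0.65), Txk (log2 -0.44), the kinase gene Lck (703 ± 82.1 and 916 ± 42.5 CPM, log2 -0.35) and Prkcq (log2 -0.36) were higher in CD8. Of the CD3 chains Cd3d was higher in CD8 (291 ± 14.5 and 404 ± 22.2 CPM, log2 -0.42), whereas Cd3e (418 and 399.5 CPM) was not called, though it was called higher in CD4 with the GC and length correction (0.15, adjusted p 0.0333). The adaptor gene Lat had 467 and 487 CPM, and its log2 difference of -0.00 became 0.18 (adjusted p 0.0418) with the same correction. That correction gave 7 members called higher in CD4 and 9 higher in CD8.

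Receptors of the common gamma chain family carry interleukin-2 and its relatives, signals of T cell growth and survival. On their list 5 of 14 tested genes were called higher in CD4 and 4 higher in CD8, with a median log2 difference of -0.02. Beside Il2ra and Il2rb, the private chain gene Il9r was at 14.7 ± 1.06 and 1.34 ± 0.369 CPM (log2 3.35, SE 0.153). The interleukin-4 receptor gene Il4ra was higher in CD4 (302 ± 43.5 and 229 ± 7.70 CPM, log2 0.47, SE 0.0790), and so was the feedback inhibitor gene Cish (41.4 ± 2.83 and 13.5 ± 2.77 CPM, log2 1.56, SE 0.124). The shared chain gene Il2rg was not called (492 and 512 CPM), and the kinase genes Jak1 (log2 -0.45, SE 0.0588) and Jak3 (log2 -0.39, SE 0.0619) were higher in CD8. The call of Jak3 was lost with transcript length as an offset (-0.14, adjusted p 0.0935).

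The gp130 system, the target of the study's transgene, was expressed in both control lineages. Receptors of this family pair gp130 with a private chain and signal through JAK kinases mainly to STAT3. Il6st, encoding gp130, had 329.5 to 375 CPM (median 344) in CD4 and 236 to 304 CPM (median 265) in CD8 libraries, without overlap (log2 0.40, SE 0.0678, adjusted p 0.000223). Il6ra had 389 to 433 CPM (median 411) in CD4 and 242 to 307 CPM (median 279) in CD8 libraries (log2 0.60, SE 0.0743, adjusted p 1.46e-05). Per length, Il6st stood at 81.4 and 51.0 TPM and Il6ra at 109 and 58.9 TPM in CD4 and CD8 libraries. On the list of gp130 and STAT genes 11 of 22 tested genes were called higher in CD4 and 7 higher in CD8, with a median log2 difference of 0.19. Stat3 had 255 ± 12.1 and 219 ± 17.9 CPM (log2 0.18, adjusted p 0.0223), a call lost in 9 of 31 alternatives. Among them were the fits without CD4 replicate 1 (0.11, adjusted p 0.272), without CD8 replicate 3 (adjusted p 0.0867) and with the GC and length correction (adjusted p 0.115). CD8 replicates 4 to 6 alone, the joined gene tables, libraries labelled female only and the replicate block were others.

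Other members of this pathway differed in both directions. Stat4, which carries interleukin-12 signals, was higher in CD8, with 81.5 to 94.7 CPM (median 86.5) in CD4 and 134 to 169 CPM (median 152) in CD8 libraries (log2 -0.80, SE 0.0770, adjusted p 1.45e-06). A gene model on the same strand holds 26.7% of the exonic bases of Stat4. Of the feedback inhibitors Socs3 was not called (122 ± 8.79 and 143 ± 21.7 CPM, log2 -0.18, adjusted p 0.184), and Socs1 was higher in CD8 (log2 -0.37, SE 0.0857). With transcript length as an offset Socs1 lost its call (-0.18, adjusted p 0.126). Socs3 was called higher in CD8 against replicates 1 to 3 alone (adjusted p 0.0265) and without the sex covariate (adjusted p 0.038). The receptor chain gene Lifr had 14.5 ± 2.48 and 1.34 ± 0.857 CPM. Osmr had 486 reads in all CD4 libraries and 1 read in all CD8 libraries, a ratio of 255 with a 95% counting interval of 45.5 to 10100.0. Lifr and Osmr are known from stroma, whose defining markers were higher in CD4 as well, and the part of stroma in these differences was not tested.

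Inhibitory receptors restrain T cells. On their list 10 of 13 tested genes were called higher in CD4 and 2 higher in CD8, with a median log2 difference of 0.96. Btla, a brake that binds HVEM, had 129 to 157 CPM (median 139.9) in CD4 and 46.1 to 53.7 CPM (median 49.9) in CD8 libraries (log2 1.53, SE 0.0697, adjusted p 1.38e-09). Lag3 had 16.1 to 22.0 CPM (median 17.7) in CD4 and 4.63 to 8.23 CPM (median 6.29) in CD8 libraries (log2 1.5, SE 0.167, adjusted p 5.79e-06). Havcr2, encoding TIM-3, stood at 15.3 ± 1.01 and 2.22 ± 0.562 CPM (log2 2.76, SE 0.165) and Pecam1 at 235 ± 15.4 and 128 ± 10.9 CPM (log2 0.96, SE 0.0558). Btla is also carried by B cells, Havcr2 by dendritic cells and Pecam1 by endothelium. Markers of these 3 cell types were higher in CD4 libraries, and their part in the 3 differences was not tested. Cd160 (13.1 ± 3.06 and 38.1 ± 4.87 CPM, log2 -1.71) and Vsir, encoding VISTA (351 ± 15.3 and 489.8 ± 36.2 CPM, log2 -0.43), were higher in CD8.

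Interferons induce a set of antiviral genes in most cells. On their list 11 of 30 tested genes were called higher in CD4 and 5 higher in CD8, beside 27.1% and 25.2% of all genes. The median log2 difference was 0.14. Beside Ly6a, Samhd1 (675 ± 11.3 and 471 ± 21.2 CPM, log2 0.49, SE 0.0416), Stat2 (100.2 ± 7.79 and 59.9 ± 5.82 CPM, log2 0.65, SE 0.0623) and Isg20 (38.2 ± 13.9 and 14.1 ± 1.71 CPM, log2 1.41, SE 0.274) were higher in CD4. Rsad2, encoding viperin, had 20.4 to 136 CPM (median 68.8) in CD4 and 6.71 to 12.9 CPM (median 11.4) in CD8 libraries (log2 2.33, SE 0.581, adjusted p 0.00696), and was not called against CD8 replicates 1 to 3 alone (adjusted p 0.064) or 4 to 6 alone (adjusted p 0.104). Ifi213 (log2 -0.60, SE 0.0654) and Ifi206 (log2 -0.57, SE 0.116) were higher in CD8.

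Enzymes that add sialic acid and other sugars shape the T cell surface. On their list 8 of 16 tested genes were called higher in CD4 and 5 higher in CD8, with a median log2 difference of 0.39. Next to St8sia6, the sialyltransferase genes St3gal2 (41.0 ± 3.55 and 8.92 ± 1.40 CPM, log2 2.22, SE 0.119), St8sia4 (log2 0.82, SE 0.0754) and St3gal1 (log2 0.50, SE 0.0446) were higher in CD4, and St3gal6 was higher in CD8 (19.7 ± 2.26 and 48.1 ± 3.16 CPM, log2 -1.36, SE 0.0796).

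Immediate early genes separated the CD8 libraries from the CD4 libraries and from each other. These genes, led by the AP-1 subunits Fos and Jun, respond quickly to stimulation or handling of cells. On their list 3 of 19 tested genes were called higher in CD4 and 15 higher in CD8, with a median log2 difference of -1.40. Fos had 4.13 to 6.41 CPM in CD4 libraries, 367 to 518 CPM in CD8 replicates 1 to 3 and 73.9 to 199.6 CPM in CD8 replicates 4 to 6 (log2 -6.04, SE 0.549, adjusted p 9.89e-06). Each CD8 library was above each CD4 library, and the log2 difference was -6.62 against replicates 1 to 3, -5.04 against replicates 4 to 6 and -5.45 without CD8 replicate 3. Junb had 113 to 138 CPM in CD4 libraries, 1644 to 1903 CPM in CD8 replicates 1 to 3 and 621 to 821 CPM in replicates 4 to 6 (log2 -3.34, SE 0.343, adjusted p 1.85e-05). Jun stood at 19.9 ± 4.06 CPM in CD4, 577 CPM in CD8 replicates 1 to 3 and 186 CPM in CD8 replicates 4 to 6 (log2 -4.33, SE 0.515), and the phosphatase gene Dusp1 at 23.8 ± 3.64 CPM, 314 CPM in CD8 replicates 1 to 3 and 142 CPM in CD8 replicates 4 to 6 (log2 -3.31, SE 0.385). Ier3 (log2 -2.67), Ier2 (log2 -1.38), Jund (log2 -1.05) and Myc (82.9 ± 5.63 and 177 ± 41.7 CPM, log2 -1.10, SE 0.159) were higher in CD8 as well, and 52.6% of the exonic bases of Jund lie in exons of a gene model on the other strand.

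The list also held EGR and NR4A genes, known targets of T cell receptor signals, and 3 of them were the members called higher in CD4. Egr3 had 44.1 ± 3.03 and 28.5 ± 3.10 CPM (log2 0.60, SE 0.0831, adjusted p 3.73e-05), Egr2 19.0 ± 0.480 and 13.4 ± 2.38 CPM (log2 0.50, SE 0.119) and Nr4a3 22.4 ± 2.44 and 16 ± 2.19 CPM (log2 0.49, SE 0.114), the last with an adjusted p of 0.0576 without CD4 replicate 1 and 0.05 with the replicate block. Egr1 was not called (85.9 ± 4.51 and 108 ± 34.3 CPM, adjusted p 0.189), but was without CD8 replicate 6 (-0.58, adjusted p 0.0463) and against CD8 replicates 1 to 3 alone (-0.75, adjusted p 3.3e-07). Nr4a1 had 67.2 ± 5.84 CPM in CD4, 262 CPM in CD8 replicates 1 to 3 and 73.2 CPM in CD8 replicates 4 to 6 (log2 -1.44, adjusted p 0.0293). That call was lost without CD8 replicate 3 (-0.83, adjusted p 0.297) and without CD4 replicate 1 (-1.5, adjusted p 0.0744), against CD8 replicates 4 to 6 alone (-0.25, adjusted p 0.223), and with limma-voom (adjusted p 0.0835), no low count filter (adjusted p 0.0553) or the replicate block (adjusted p 0.129). Of the 19 immediate early genes 14 had a promoter window, and 9 of these (64.3%) held the half-site TGACG or CGTCA shown above in Fos, beside 19.8% of all symbols in the table. The 2 sets were not matched for base composition or windows per gene, and a link to the level of these genes was not tested. Against CD8 replicates 4 to 6 alone, 13 of the genes were called higher in CD8 and the median was -0.92. The steps of the 2 selection procedures went with the cell type, so handling and lineage cannot be told apart for these genes.

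**Figure D4:**
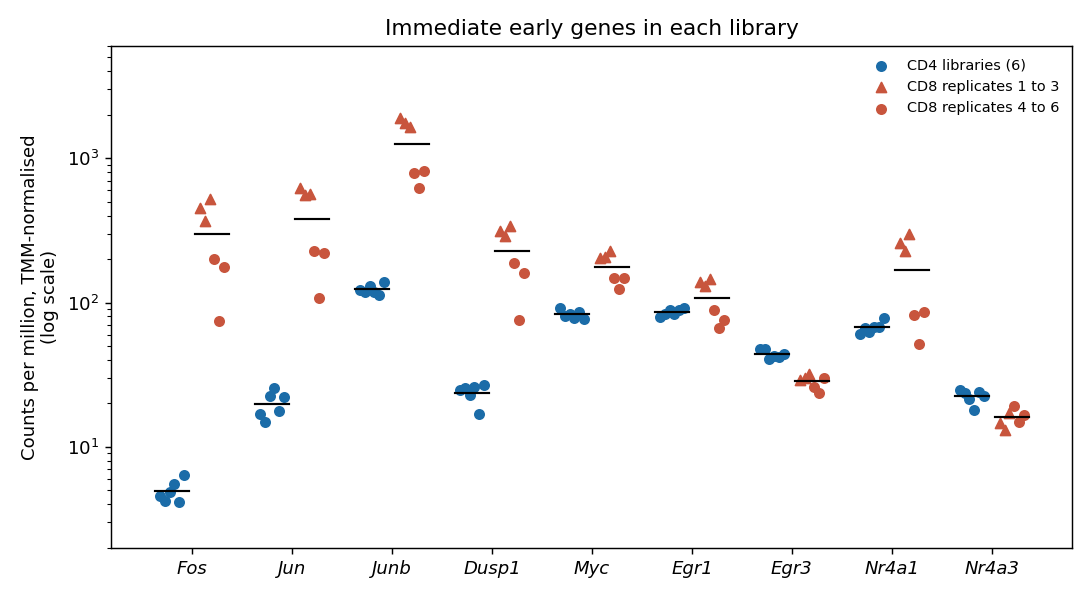
Level of 9 immediate early genes in each library, in TMM-normalised CPM on a log scale. Blue dots are the 6 CD4 libraries, red triangles CD8 replicates 1 to 3, red dots CD8 replicates 4 to 6, and black bars group means. Fos, Jun, Junb and Dusp1 are higher in every CD8 library, with replicates 1 to 3 above replicates 4 to 6, while Egr3 is higher in every CD4 library.

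Growth and metabolism lists held few large differences. On the cell cycle list 0 of 22 tested genes were called higher in CD4 and 3 higher in CD8, with a median log2 difference of 0.11. Mki67, a marker of dividing cells, had 156 ± 78.8 and 74.6 ± 30.8 CPM (log2 0.82, adjusted p 0.238). It was called higher in CD4 without the sex covariate (1.06, adjusted p 0.0405) and with the replicate number as a block (0.93, adjusted p 0.0441). The called members were Mcm6 (log2 -0.44, adjusted p 0.00191), Mcm3 (log2 -0.38, adjusted p 0.0163) and Mcm7 (log2 -0.27, adjusted p 0.0332) of the replicative helicase. Without CD4 replicate 1 Mcm3 (adjusted p 0.105) and Mcm7 (adjusted p 0.202) lost their call, and Mcm7 did without CD4 replicate 6 (adjusted p 0.0581) or CD8 replicate 3 (adjusted p 0.0984). On the glycolysis list 3 of 17 tested genes were called higher in CD4 and 5 higher in CD8, beside 27.1% and 25.2% of all genes. The median log2 difference was -0.12. Pfkp (129.5 ± 2.23 and 172 ± 6.41 CPM, log2 -0.43) and Pgam1 (85.0 ± 2.48 and 122 ± 12.5 CPM, log2 -0.54) were higher in CD8, and Ldha was not called (439 and 458 CPM). Of the GIMAP GTPases, regulators of lymphocyte survival, 1 of 8 tested genes were called higher in CD4 and 2 higher in CD8, with a median log2 difference of -0.02. Gimap5 had 85.4 ± 4.09 and 144 ± 11.9 CPM (log2 -0.72, SE 0.0634).

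Transcripts of other spleen cells were unequal between the groups and are set apart here. The 8 defining erythroid markers summed to 4620.0 to 26800.0 CPM in CD4 and 48.6 to 718 CPM in CD8 libraries, with the haemoglobin gene Hba-a1 at 934 to 5014 and 10.9 to 139 CPM. B cell markers summed to 277 to 1040.0 CPM in CD4 and 40.5 to 102 CPM in CD8 libraries, and dendritic cell markers to 126 to 201 CPM in CD4 and 37.4 to 60.6 CPM in CD8 libraries. Monocyte and macrophage markers overlapped, at 588 to 1400.0 CPM in CD4 and 377 to 799 CPM in CD8 libraries. Within that list Cd5l of splenic macrophages was higher in CD4 (43.9 ± 11.4 and 11.4 ± 3.77 CPM, log2 2.16, SE 0.274), while Lyz2 was not called (280.5 and 299.5 CPM). Of 9 tested defining markers of these cells 8 were called higher in CD4, each at least 2-fold, and 0 higher in CD8, with a median log2 difference of 1.79. On the full list of these cells 48 of 67 tested genes were called higher in CD4 and 7 higher in CD8.

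Other cell types were higher in the CD8 libraries or overlapped. The 5 defining gamma-delta and innate-like T cell markers summed to 16.2 to 29.1 CPM in CD4 and 43.3 to 67.3 CPM in CD8 libraries, with Trdc at 7.88 ± 1.01 and 18.3 ± 3.71 CPM. Plasma cell markers were at 63.6 to 150.0 CPM in CD4, 399 to 459 CPM in CD8 replicates 1 to 3 and 80.6 to 177 CPM in CD8 replicates 4 to 6. Jchain, the joining chain of secreted antibody, was not called over all libraries (log2 -0.31, adjusted p 0.586), was higher in CD8 against replicates 1 to 3 alone (-0.92, adjusted p 0.0161) and higher in CD4 against replicates 4 to 6 alone (0.89, adjusted p 0.0215). On the full plasma cell list 7 of 20 tested genes were called higher in CD4 and 3 higher in CD8, while of 4 tested defining markers 0 were higher in CD4 and 1 was higher in CD8. Neutrophil markers overlapped, at 14.8 to 67.2 CPM in CD4 and 5.92 to 61.1 CPM in CD8 libraries. Of 7 tested defining markers 2 were called higher in CD4 and 0 higher in CD8, whereas on the full neutrophil and granulocyte list 7 of 33 tested genes were called higher in CD4 and 12 higher in CD8, 11 of these at least 2-fold. No defining marker of these 10 cell types was at 0 in all libraries of either group. Of the genes called and at least 2-fold different, 193 of the 1916 higher in CD4 and 50 of the 565 higher in CD8 were on a list of other cell types or mitochondrial transcripts. These lists are not complete, and the vessel genes Pcdh12 and Sox18 are on none of them. The counts therefore do not measure how many of these differences come from other cells.

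**Figure D5:**
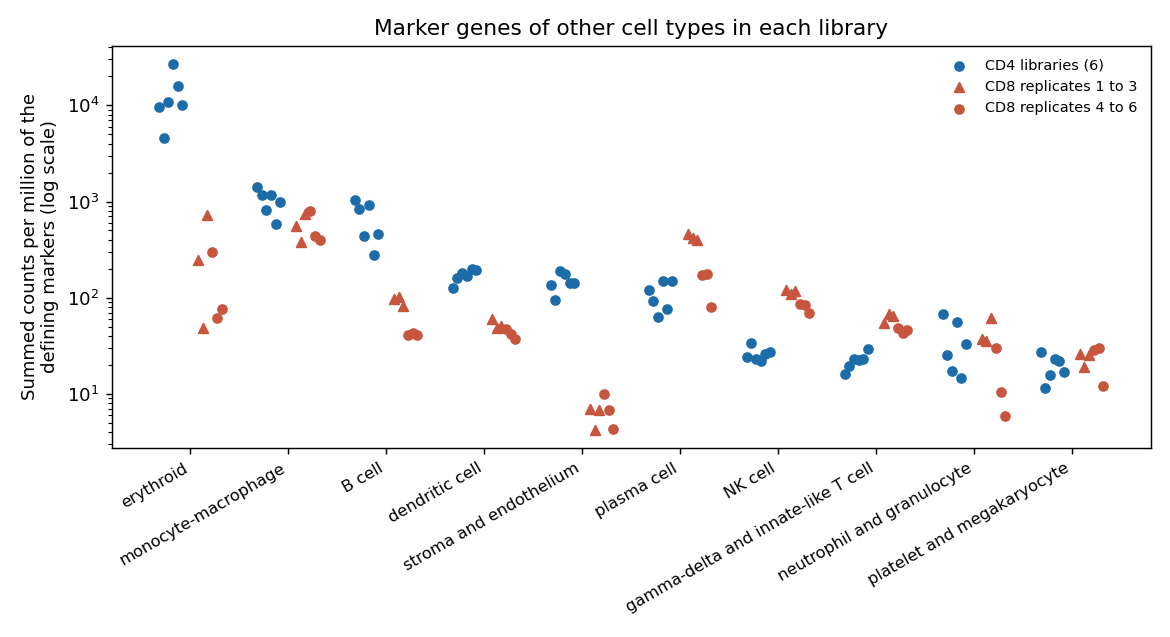
Summed level of the defining markers of 10 other cell types in each library, in TMM-normalised CPM on a log scale. Blue dots are the 6 CD4 libraries, red triangles CD8 replicates 1 to 3, red dots CD8 replicates 4 to 6. Erythroid, B cell, dendritic cell and stromal sums are higher in every CD4 library, and NK and gamma-delta sums in every CD8 library.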

How the data were processed

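Polyadenylated RNA of purified spleen T cells was sequenced unstranded as paired ends, per the labels' protocols. The submitters' processing notes name cutadapt 3.4, Trimmomatic 0.39, Salmon 1.5.2, edgeR 3.34.1 and the build GRCm38, without saying what each was used for. Per the file headers, the authors deposited estimated counts (reads) and TPM per transcript for each library. Gene tables of estimated counts that the authors deposited are length-scaled separately for each cell type and served as an alternative. From the deposited tables of normalised values (a score) only the list of genes was used.

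Estimated counts of 137641 transcripts were summed to genes with GENCODE M21 and rounded. No match was found for 694 transcripts, which held 0.144% to 0.185% of reads. The 14660 genes that passed filterByExpr were tested with edgeR 4.0.16 in R 4.3.3 (TMM, robust quasi-likelihood F test, 2-sided, labelled sex as covariate, Benjamini-Hochberg adjustment over all genes, called at an adjusted p under 0.05). The SE is the size of the log2 difference over the square root of F. TPM was used only for levels per length. The fit was tested on simulated data. Library pairs of a group differed by a chi-square per gene of at least 6.73, so none looked like a copy of another.

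The named genes are Cd4, Zbtb7b, Cd8a and Cd8b1, the called members with the smallest adjusted p (up to 4 per list and direction), and the 15 largest differences per direction without overlap, with at least 8 CPM in the higher group and a highest to lowest ratio of at most 2 there, leaving out genes of other cell types, gene models, receptor segments and sex genes. Some of these are given by count only or not reported here, and other list members were added after their values were seen. The groups, lists and rule were chosen with earlier results of these data known. Alternatives included DESeq2 1.42.0 and limma 3.58.1.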

Additional observations from a re-analysis of the deposited data

Results flagged for a closer look

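In 20 of 425 gene or marker levels examined within a cell type, 1 of the 6 libraries lay apart from the other 5 by more than Dixon's critical value. Chance gives about 1 in 20 for independent levels with a normal spread. The levels examined share the same libraries and are not independent, so no conclusion is drawn from their number. For Lrrn1 and Osmr 1 read in the CD8 libraries met the rule by itself. In the CD4 libraries these were Gimap5 at 93.2 CPM against 81.8 to 85.7 (replicate 2), Havcr2 at 17.3 CPM against 14.6 to 15.2 (replicate 4) and Itgb1 at 283 CPM against 317 to 329 (replicate 1). Next came Kcnc1 at 2.62 CPM against 2.05 to 2.25 (replicate 1), Ly6c1 at 128 CPM against 85.3 to 97.8 (replicate 1) and Pdlim4 at 63.6 CPM against 38.3 to 41.9 (replicate 1). Then came Pgam1 at 89.9 CPM against 83.1 to 84.8 (replicate 2), St8sia4 at 131 CPM against 114 to 119 (replicate 2) and Themis at 133 CPM against 147 to 154 (replicate 4). Last came Trbv12-2 at 12.6 CPM against 7.28 to 8.41 (replicate 5), Trbv14 at 9.09 CPM against 7.53 to 8.04 (replicate 1) and Txk at 92.0 CPM against 101 to 106 (replicate 4). In the CD8 libraries these were Cd160 at 28.5 CPM against 38.1 to 42.0 (replicate 2), Hba-a1 at 139 CPM against 10.9 to 51.5 (replicate 3) and Il7r at 823 CPM against 483 to 601 (replicate 3). Next came Lcn4 at 22.2 CPM against 16.2 to 18.3 (replicate 1), Lrrn1 at 0.0573 CPM against 0 in the others (replicate 2) and Ly6c1 at 3.55 CPM against 1.38 to 2.18 (replicate 1). Then came Osmr at 0.0534 CPM against 0 in the others (replicate 3) and the summed erythroid markers at 718 CPM against 48.6 to 297 (replicate 3).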

How the results depend on the processing

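Of 204 genes named in the text, 185 had a value in each of 31 alternatives, and 124 of these kept their direction and their side of the threshold in every one. Of the other 19, tested in 28 to 30 alternatives, 19 did so wherever they were tested. A test against a fold of 1.5, which asks for a larger difference, called 2419 genes, 1807 higher in CD4 and 612 higher in CD8, against 7662, 3971 and 3691. That is a share of 74.7% higher in CD4, against 51.8%. Leaving out each library in turn gave 6658 to 7974 calls, with 3267 to 4165 higher in CD4 and 3180 to 3810 higher in CD8. The fewest calls, 6658, came without CD4 replicate 1, the only CD4 library labelled male. The other settings kept these counts within 1.5 times, among them RLE size factors, DESeq2 (4116 and 3762), limma-voom (3936 and 3689), libraries labelled female only (3702 and 3610), sex from reads (4243 and 3945) and the joined gene tables (3453 and 3150). Without a low count filter the median log2 difference of all genes was 0.13, against 0.01. A correction for GC content and length, chosen after seeing the data, gave 3948 and 3505 and turned Lat from -0.00 to 0.18. Of the gene lists, the T cell receptor list went from 4 to 7 called higher in CD4 with that correction. Against CD8 replicates 4 to 6 alone the naive list went from 5 to 3 higher in CD4, the cytotoxic list from 1 to 2 higher in CD4 and the cell cycle list from 3 to 1 higher in CD8. Against replicates 1 to 3 alone the adhesion list went from 11 to 7 higher in CD8. The GIMAP list went from 1 to 2 higher in CD4 with the correction and against replicates 1 to 3 alone. Jchain turned from -0.31 to 0.89 with CD8 replicates 4 to 6 only, and the cause was not tested. Same-numbered libraries correlated at -0.01 to 0.19 in their deviations, and 3 of 6 correlated best with their own number, which does not decide on pairing. Xist stood at 859.5 and 0.11 CPM (before TMM) in CD4 and CD8 replicates 2, and at 857.7 and 0 CPM in replicates 4. These numbers thus join different mice, and the numbers were not taken as pairs. With the replicate number as a block, 6222 genes were called, 3300 higher in CD4 and 2922 higher in CD8. Depth and selection go with cell type, and no alternative separates selection from lineage.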

Other observations

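Single T cell receptor variable segments differed in both directions. Of 21 beta variable segments tested 8 were called higher in CD4 and 8 higher in CD8 (38.1% each), with a median log2 difference of 0.05, beside 27.1% and 25.2% of all genes. Trbv12-1 stood at 4.24 ± 0.523 and 27.5 ± 1.55 CPM in CD4 and CD8 libraries (mean ± SD, n = 6 each; log2 -2.63, SE 0.0929, adjusted p 1.04e-10, edgeR), Trbv12-2 at 8.74 ± 1.95 and 29.2 ± 2.45 CPM (log2 -1.73, SE 0.141), and Trbv14 at 8.03 ± 0.547 and 26.6 ± 1.15 CPM (log2 -1.69, SE 0.0696). Trbv17 (log2 -1.67, SE 0.103) and Trbv29 (log2 -1.33, SE 0.0896) were higher in CD8 too, and Trbv31 (19.7 ± 1.92 and 7.71 ± 0.733 CPM, log2 1.43, SE 0.0950) and Trbv20 (14.9 ± 1.32 and 6.56 ± 1.31 CPM, log2 1.19, SE 0.142) were higher in CD4. Of 81 alpha variable segments tested 23 were called higher in CD4 and 12 higher in CD8, or 28.4% and 14.8%, near and below the shares of all genes, with a median of 0.20. Trav7-4 (log2 1.07, SE 0.125) was higher in CD4 and Trav9d-3 (log2 -1.30, SE 0.140) in CD8. These segments were chosen after their values were seen, and reads of near-identical segments such as Trbv12-1 and Trbv12-2 are divided by estimate.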
